A study of Homo sapiens with 2 samples.

Results

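Peaks of RUNX2, a transcription factor of bone formation, and of MTA1, which belongs to the NuRD complex that remodels and deacetylates chromatin, were examined at 9 immediate early and related genes: EGR1, EGR2, EGR3, EGR4, IER2, IER3, IER5, NR4A1 and SRF. The genes were listed by name, with earlier results of these data known, and are 9 of the 20037 protein-coding genes annotated by RefSeq on GRCh38. A peak was assigned to a gene when it lay inside the gene or within 20 kb of it. This gave 57 of the 61700 RUNX2 peaks and 46 of the 42683 MTA1 peaks on the nuclear chromosomes.

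Both lists came from non-treated MDA-MB-231 cells, a triple-negative breast cancer cell line, profiled by CUT&Tag. In this assay a transposase is brought to the bound protein by an antibody and cuts and tags the DNA nearby for sequencing. One library was made with an antibody against RUNX2 and one with an antibody against MTA1, so each value below comes from 1 library and has no replicate, and no p-value was computed. For both antibodies the supplier in the labels is not the one in the study's methods. The 2 lists differ in their number of peaks and in threshold, the number of reads behind them is unknown, and no control library was analysed here. The score of each peak, whose scale is not stated, ran from 3.0 to 108 in the RUNX2 list and from 3.01 to 98.7 in the MTA1 list. It was therefore turned into a percentile, the percent of peaks of the same list with a lower score, and between the lists only percentiles were compared. Where a list has no peak, the protein may be absent or its signal too weak for the threshold.

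Immediate early genes are transcribed within minutes of a growth factor, stress or calcium signal, without the need for new protein. SRF is the transcription factor that carries much of this response: it binds CArG boxes in the promoters of such genes, together with ETS-type partners of the ELK family or with the actin-regulated cofactors MRTFA and MRTFB. The EGR proteins are zinc finger transcription factors made in this response, NR4A1 is an orphan nuclear receptor, and the IER genes encode small proteins that are induced with them.

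All 9 genes had a RUNX2 peak in their window and 8 had an MTA1 peak, the exception being EGR4. An overlapping pair of a RUNX2 and an MTA1 peak, sharing at least 1 bp, was found at the same 8 genes. These rules are loose. Of all protein-coding genes 84.4% met the rule for RUNX2, 79.7% that for MTA1 and 71.0% that for a pair. Among the 12210 protein-coding genes no longer than NR4A1, the longest of the 9 genes with 36672 bp, the shares were 79.5%, 74.6% and 66.1%.

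Within 1 kb of a transcription start the background was lower. A RUNX2 peak lay there at 8 of the 9 genes, against 49.8% of all protein-coding genes and 45.3% of those no longer than NR4A1. An MTA1 peak lay there at 7 genes, against 51.2% and 46.7%, and an overlapping pair at the same 7, against 42.3% and 38.9%. The exceptions were EGR4, with no peak of either list, and EGR3, which lacked an MTA1 peak. For EGR3 and IER3 the start was taken as either end of the gene.

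**Figure D1:**
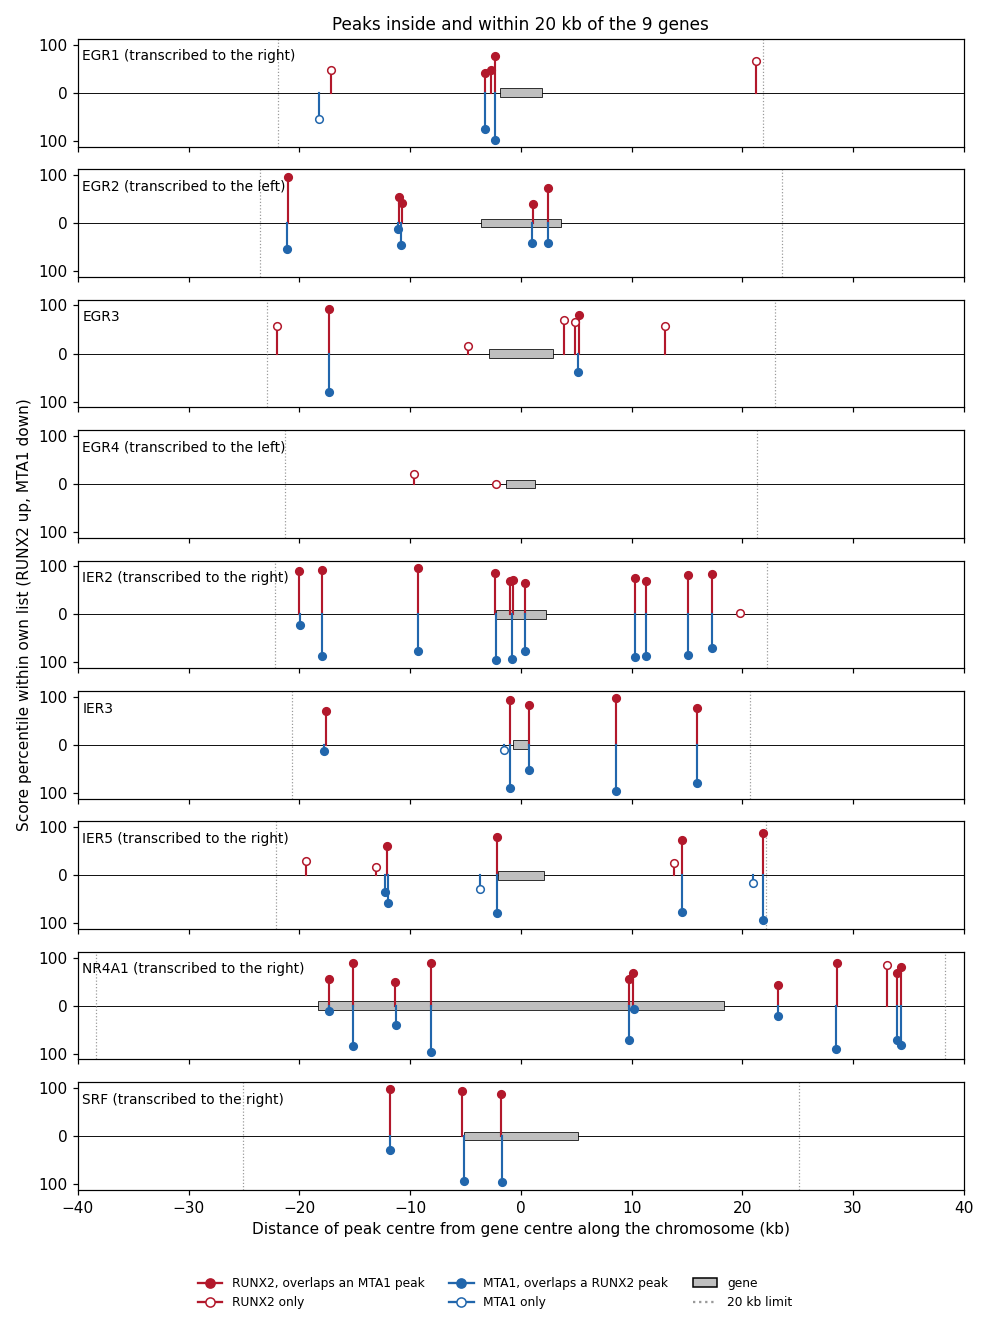
Peaks of both lists along the 9 genes. The horizontal axis is the distance of the peak centre from the gene centre in kb, with chromosome positions rising to the right. Stem length is the score percentile within the own list, with RUNX2 drawn upward and MTA1 downward. Filled points overlap a peak of the other list, grey boxes are genes and dotted lines are the 20 kb limits. IER2 and NR4A1 carry the most stems of both kinds, and EGR4 carries 2 short RUNX2 stems and no MTA1 stem.

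The number of peaks separated the genes. Over the genes no longer than NR4A1 the median was 2 peaks of each list. IER2 had 12 RUNX2 and 10 MTA1 peaks, more than 99.9% and 99.7% of these genes. NR4A1 had 11 and 10, more than 99.7% of them in both lists, in the longest window of the 9. IER5 had 7 peaks of each list, which was above 94.0% and 96.1% of genes. At EGR3 the lists differed, with 7 RUNX2 peaks (above 94.0%) and 2 MTA1 peaks (above 43.6%). EGR1 had 5 and 3, EGR2 had 5 and 5, IER3 had 5 and 6, and SRF had 3 and 3. EGR4 was at the low end with 2 and 0.

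**Figure D2:**
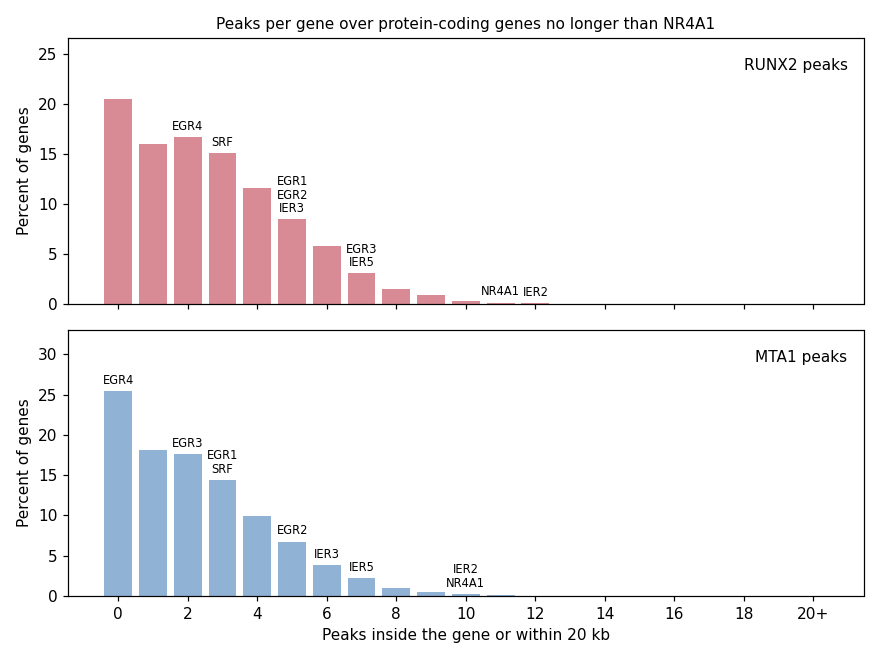
Percent of protein-coding genes no longer than NR4A1 (vertical axis) by the number of peaks inside the gene or within 20 kb (horizontal axis), for RUNX2 above and MTA1 below. The 9 genes are named over the bar of their own number. IER2 and NR4A1 stand at 12 and 11 RUNX2 peaks and at 10 MTA1 peaks each, far right of the median of 2.

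Most peaks at these genes lay on a peak of the other list. Of the 57 RUNX2 peaks 43 overlapped an MTA1 peak, or 75.4% (95% exact Clopper-Pearson interval 62.2% to 85.9%). In the MTA1 list 42 of 46 peaks did so with RUNX2, a share of 91.3% (79.2% to 97.6%). In the windows of all genes no longer than NR4A1 these shares were 56.1% (55.4% to 56.8%) and 69.5% (68.7% to 70.2%). The intervals of the 9 genes lay above those of the background in both lists under this rule, but not under all rules tried. When only peaks that reach the median of their own list were kept, the RUNX2 share was 67.4% (51.5% to 80.9%) against 64.1% in the background windows, and the MTA1 share 93.3% (77.9% to 99.2%) against 77.9%. The intervals cover counting error over peaks only, and peaks of 1 gene or library are not independent of each other. The peaks at the 9 genes also had higher scores, with a median percentile of 69.7 for RUNX2 and 73.9 for MTA1 against 56.5 and 57.3 in the background windows. The part of score in the overlap was not tested.

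By role, the EGR genes had the lowest overlap in the RUNX2 list, with 10 of 19 peaks, or 52.6% (28.9% to 75.6%). This is near the 56.1% of the background windows. At the IER genes 20 of 24 RUNX2 peaks overlapped, or 83.3% (62.6% to 95.3%), an interval that meets that of the EGR genes. At NR4A1 10 of 11 RUNX2 peaks overlapped and at SRF 3 of 3. In the MTA1 list the shares were 9 of 10 at the EGR genes, 20 of 23 at the IER genes, 10 of 10 at NR4A1 and 3 of 3 at SRF. The background share there was 69.5%. Few MTA1 peaks thus lay alone at any of the genes, and the 14 RUNX2 peaks that lay alone had lower ranks. Their median percentile was 38.1, against 76.8 for the 43 that overlapped. Over the 28440 overlapping pairs of the whole lists the median RUNX2 percentile was 72.6, so higher ranks of paired peaks are not particular to these genes. Of the 14 lone peaks 6 had the narrowest width of the list, 99 bp, as did 2 of the 43. That width is common: 31.7% of all RUNX2 peaks had it, and 26.0% of all MTA1 peaks had the narrowest width of theirs.

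By position, 10 of 11 RUNX2 peaks within 1 kb of a start overlapped (interval 58.7% to 99.8%). Of those inside a gene but farther from a start 9 of 9 did (66.4% to 100%), and of those outside the genes 24 of 37 (47.5% to 79.8%). These intervals meet, which is not a test, and a difference by position was not tested. In the windows of all genes no longer than NR4A1 the shares were 78.2%, 42.9% and 45.6%. For MTA1 the numbers were 9 of 10, 8 of 8 and 25 of 28, against 77.4%, 60.3% and 65.7%. The 20 kb windows reached other genes: 21 RUNX2 and 16 MTA1 peaks lay nearer to another protein-coding gene than to the one whose window held them. This also holds close to the starts. The IER2 start is 36 bp from the start of STX10, which is read in the other direction, and the strongest IER3 peaks near a gene end lie by the starts of FLOT1 and of the antisense transcript IER3-AS1. Peaks there cannot be told apart by gene.

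EGR1, the best known member of its family and a target of growth factor signalling, carried the highest-ranked MTA1 peak of the 9 genes. The peak at chr5:138464624-138465437 had a score of 43.0, above 98.6% of MTA1 peaks. It was 814 bp wide, wider than 99.8% of the list, and ended 42 bp before the start of EGR1. A second MTA1 peak lay 1134 bp before the start, at chr5:138464044-138464345 (score 13.6, percentile 76.4), and another at chr5:138449098-138449246 (8.21, percentile 54.3), nearer to REEP2. RUNX2 was ranked lower at the same place. Its strongest peak, at chr5:138464954-138465168 (score 13.0, percentile 76.8), lay within the wide MTA1 peak and ended 311 bp before the start. A weaker one at chr5:138464559-138464836 (6.32, percentile 47.2) overlapped the same MTA1 peak, and one of the narrowest width at chr5:138464065-138464163 (5.39, percentile 40.1) lay on the second MTA1 peak. The remaining RUNX2 peaks, at percentiles 46.9 and 66.7, lay near REEP2 and ETF1 and overlapped no MTA1 peak. No peak of either list lay inside EGR1.

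EGR1 thus ranked near the top by MTA1 and in the middle by RUNX2. Among the 8873 protein-coding genes with a peak of both lists within 1 kb of a start, 94.2% had a lower strongest MTA1 peak and 54.1% a lower strongest RUNX2 peak. The MTA1 percentile exceeded that of RUNX2 by 21.7 points, a larger difference than at 84.1% of these genes. The genes whose pair of percentiles was closest to that of EGR1, by the straight-line distance in percentile points, were CDCA3 (76.9 for RUNX2 and 98.8 for MTA1, distance 0.200), MAPK14 (76.5 and 98.9, 0.459), RPP40 (77.2 and 98.1, 0.580), ARHGAP19 (77.5 and 97.9, 0.902) and PSMD2 (77.2 and 99.6, 1.07).

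The 250 bases before the EGR1 start are printed here, read in the direction of the gene, because the MTA1 peak ends inside them and no RUNX2 peak reaches them. The window is chr5:138465229-138465478 (GRCh38.p14, plus strand, RefSeq), and capitals mark CArG boxes, which are known SRF sites. Bases are counted from 1 at the first base.
EGR1 promoter: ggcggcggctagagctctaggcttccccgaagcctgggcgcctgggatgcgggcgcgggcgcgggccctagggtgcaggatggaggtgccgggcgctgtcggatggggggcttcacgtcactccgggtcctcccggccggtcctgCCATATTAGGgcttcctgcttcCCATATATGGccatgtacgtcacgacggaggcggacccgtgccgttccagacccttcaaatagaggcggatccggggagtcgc
EGR1 quantitative ChIP primer: ttgaagggtctggaacggcac
The MTA1 peak covers bases 1 to 209, and both CArG boxes, at bases 146 to 155 and 168 to 177, lie in it. The primer is the antisense one that the study used for quantitative ChIP at EGR1. Its reverse complement matches bases 206 to 226, at chr5:138465434-138465454, and no other promoter window of the table. Of its 21 bases 4 lie in the MTA1 peak, and no RUNX2 peak lies over the primer. These counts are for the primer alone, not for the amplified region. By quantitative ChIP the study reported strong enrichment at the EGR1 promoter of the complex that RUNX2 forms with MTA1 and the ubiquitin ligase CRL4B. The sense primer matched 0 promoter windows, and the antisense primer is extended toward lower base numbers. The amplified region would thus run upstream from base 226 through the bases shown, both CArG boxes included. Its upstream end, and whether it reaches the RUNX2 peaks before the window, are not known here.

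EGR2, a family member known for its role in myelination and in lymphocytes, showed the opposite order of ranks. Its window held 5 peaks of each list, and each overlapped a peak of the other. The strongest RUNX2 peak, at chr10:62794424-62794596 (score 38.9, percentile 96.8), lay 17.4 kb beyond the gene and nearer to ADO. Its MTA1 partner at chr10:62794430-62794557 scored 8.25, at percentile 54.6. Around the start of ADO lay 2 pairs more, with RUNX2 percentiles of 54.8 and 41.5 and MTA1 percentiles of 13.1 and 46.4. At EGR2 itself, near the annotated starts, the RUNX2 peak at chr10:62817886-62818132 (11.5, percentile 73.4) overlapped the MTA1 peak at chr10:62817878-62818124 (6.76, percentile 42.4). The other pair, chr10:62816442-62816851 (5.30, percentile 39.7) and chr10:62816365-62816831 (6.69, percentile 41.9), lay at the start farthest into the gene. No MTA1 peak at EGR2 thus ranked above percentile 54.6, and only 12.8% of the 8873 genes had a lower strongest MTA1 peak near a start.

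Of the 3 annotated EGR2 starts only the last has peaks over its promoter window. Its 250 bases, chr10:62816367-62816616 on the minus strand, are shown with the CArG box in capitals, since the box falls between the edges of the peaks.
EGR2 promoter: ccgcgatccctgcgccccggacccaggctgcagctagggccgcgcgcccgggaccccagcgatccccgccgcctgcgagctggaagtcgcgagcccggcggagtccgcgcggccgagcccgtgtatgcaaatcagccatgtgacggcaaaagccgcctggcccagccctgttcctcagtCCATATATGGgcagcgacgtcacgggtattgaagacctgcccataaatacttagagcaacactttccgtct
The box at bases 180 to 189 lies in the MTA1 peak, which covers all bases shown. The RUNX2 peak covers bases 1 to 175 and so leaves the box out. The edges of called peaks depend on the caller and on depth, and 1 library gives no measure of their error.

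EGR4 was the gene with the least signal. Both of its RUNX2 peaks had the narrowest width of the list, 99 bp. One at chr2:73289937-73290035 scored 3.07, above only 0.655% of RUNX2 peaks, and the other at chr2:73282569-73282667 scored 4.73, above 20.8%, and lay nearer to FBXO41. No MTA1 peak lay within 20 kb, which 25.4% of the genes no longer than NR4A1 share. The 250 bases before its start, chr2:73293549-73293798 on the minus strand, hold no CArG box and are shown with 2 matches to TGACG, the core of a cyclic AMP response element, in capitals.
EGR4 promoter: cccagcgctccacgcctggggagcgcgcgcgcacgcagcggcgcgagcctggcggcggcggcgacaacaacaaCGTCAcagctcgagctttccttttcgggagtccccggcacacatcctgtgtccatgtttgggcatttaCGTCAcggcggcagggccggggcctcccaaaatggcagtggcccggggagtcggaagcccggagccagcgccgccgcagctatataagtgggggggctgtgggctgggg
The 300-base window from which these bases were taken had a GC content of 71.0%, above 81.9% of promoters, with 35 CpG sites. The window of EGR1, which the MTA1 peak covers in part, had 69.3% and 33 CpG sites. A part of GC content in the peaks was not tested.

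EGR3, known for its roles in muscle spindles and T cells, had more RUNX2 than MTA1 peaks. On chromosome 8, RUNX2 peaks lay at 3 places close to one end of the gene, 918 bp, 1.86 kb and 2.21 kb from it, with scores of 10.3 (percentile 69.7), 9.33 (66.1) and 14.9 (80.7). Only the last of these overlapped an MTA1 peak, which scored 6.34 at percentile 38.7. The strongest RUNX2 peak of the window scored 26.6 (92.2) and lay 14.3 kb from the gene, nearer to BIN3, where an MTA1 peak of score 14.8 (79.3) overlapped it. The other 3 RUNX2 peaks lay alone at percentiles 58.1, 15.3 and 58.3.

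IER2, an immediate early gene of growth factor signalling, had peaks of both lists from end to end of its window. At the start, the RUNX2 peak at chr19:13150256-13150448 (score 19.8, percentile 86.9) and the MTA1 peak at chr19:13150261-13150503 (29.7, percentile 95.1) both cover the starts of IER2 and STX10. Inside the gene, 3 further RUNX2 peaks at percentiles 69.4, 72.5 and 64.6 lay on 2 MTA1 peaks at percentiles 93.8 and 76.9. MTA1 was thus ranked above RUNX2 at the start and inside the gene. The 4 RUNX2 peaks from 7.99 to 14.9 kb beyond the gene (percentiles 75.1, 68.6, 82.9 and 83.7) each had an MTA1 partner (89.5, 86.6, 84.5 and 69.1). On the other side, toward STX10 and NACC1, RUNX2 was ranked higher in all 3 pairs. The strongest RUNX2 peak of the window, chr19:13143090-13143569 (42.2, percentile 97.5), lay on an MTA1 peak at percentile 77.1, and peaks at percentiles 92.9 and 90.4 lay on MTA1 peaks at 85.6 and 21.4. The only peak without a partner was a RUNX2 peak of score 3.30 at percentile 3.10.

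The 250 bases before the IER2 start, chr19:13150161-13150410 on the plus strand, are shown with a match to the ETS core CCGGAA, the sequence bound by partners of SRF and by other ETS factors, in capitals.
IER2 promoter: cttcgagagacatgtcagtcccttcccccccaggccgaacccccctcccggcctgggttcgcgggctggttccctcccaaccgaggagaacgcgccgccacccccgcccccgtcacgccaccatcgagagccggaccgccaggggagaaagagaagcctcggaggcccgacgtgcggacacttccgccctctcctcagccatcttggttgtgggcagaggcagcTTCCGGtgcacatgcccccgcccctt
The match begins at base 225 and lies under both peaks, which begin at bases 96 (RUNX2) and 101 (MTA1) and run past the start. The window holds no CArG box.

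IER3, which is induced by stress and NF-kB and acts on cell survival, had 5 RUNX2 peaks, all with an MTA1 partner. The strongest, chr6:30752308-30752689 (score 40.3, percentile 97.1), lay 7.76 kb from the gene and overlapped the MTA1 peak at chr6:30752280-30752737 (31.7, percentile 95.9). Both were the highest of the window in their own list. The RUNX2 peak at chr6:30742752-30743064 (28.1, percentile 93.0) and the MTA1 peak at chr6:30742709-30743059 (21.9, percentile 89.8) lay within 140 bp of one end of IER3 and over the start of IER3-AS1. IER3-AS1 is on the plus strand, so IER3, to which it is antisense, would start at its other end. There the RUNX2 peak at percentile 83.5 lay on an MTA1 peak at percentile 51.7. The remaining pairs lay 15.1 kb from the gene (76.0 and 79.5) and 16.8 kb from it, near TUBB (69.4 and 13.3). A single MTA1 peak of the narrowest width, at percentile 10.3, had no partner.

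IER5, a relative of IER2 linked to heat shock and DNA damage responses, had 1 pair at its start, with close ranks in both lists. The RUNX2 peak chr1:181088458-181088758 (score 14.7, percentile 80.2) and the MTA1 peak chr1:181088458-181088801 (14.1, percentile 77.8) begin at the same base. A higher-ranked pair lay 19.6 kb beyond the gene, just within the limit, at chr1:181112482-181112800 (20.8, percentile 87.9) and chr1:181112481-181112825 (25.6, percentile 92.9). Further pairs lay 12.4 kb beyond the gene (72.9 and 75.6) and 9.80 kb before it, where a RUNX2 peak at percentile 60.4 touched MTA1 peaks at 34.9 and 57.7. The unpaired peaks were weak, with RUNX2 percentiles of 29.3, 16.7 and 24.9 and MTA1 percentiles of 27.7 and 16.9. All 3 RUNX2 ones had the narrowest width.

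The 250 bases before the IER5 start, chr1:181088450-181088699 on the plus strand, are shown with the ETS core in capitals, because both peaks cover them almost whole.
IER5 promoter: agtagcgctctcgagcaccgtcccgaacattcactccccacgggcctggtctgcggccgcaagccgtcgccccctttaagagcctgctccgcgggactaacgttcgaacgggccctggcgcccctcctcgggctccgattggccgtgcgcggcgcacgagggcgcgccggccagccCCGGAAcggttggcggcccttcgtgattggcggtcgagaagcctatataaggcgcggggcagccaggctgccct
Both peaks begin at base 9, and the match begins at base 177. The start of LOC124904465, read in the other direction, lies 199 bp from that of IER5.

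At NR4A1 the strong peaks lay away from the annotated starts. Within 1 kb of an annotated start it had 1 weak pair, chr12:52023740-52023889 (RUNX2, score 7.07, percentile 54.6) and chr12:52023742-52023857 (MTA1, 4.42, percentile 10.5, narrowest width). Of the 8873 genes 1.86% had a lower strongest MTA1 peak near a start and 22.7% a lower RUNX2 peak. Stronger pairs lay deeper inside the gene. At chr12:52025841-52026117 the RUNX2 peak scored 22.1 (percentile 89.1) on an MTA1 peak of 17.5 (84.2), 3.01 kb from a start. At chr12:52033001-52033180 it scored 20.8 (87.9) on the strongest MTA1 peak of the window, chr12:52032939-52033208 (36.6, percentile 97.4), 4.54 kb from a start. The 2 pairs at percentiles 54.7 and 72.2 and at 68.0 and 6.73 lay 13.1 to 13.5 kb beyond the second start, and a pair with scores of 6.51 and 6.42 lay between the starts. Beyond the gene, peaks lay nearer to ATG101, among them the strongest RUNX2 peak of the window, chr12:52069481-52069982 (22.3, percentile 89.2), which covers the ATG101 start and overlapped an MTA1 peak at percentile 89.3. The other pairs there were at 43.7 and 21.8, 67.2 and 71.7, and 81.3 and 82.1. The only RUNX2 peak without a partner, chr12:52074113-52074380, ranked high (18.4, percentile 85.4) and lay among pairs 14.6 kb beyond the gene. It was the highest-ranked unpaired RUNX2 peak at the 9 genes. NR4A1 thus ranked low near the 2 starts used here and high over its whole window. Any other start of the gene, missing from the promoter table, was not examined.

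SRF had 3 peaks of each list, more than 53.1% (RUNX2) and 61.2% (MTA1) of the genes no longer than NR4A1, and all but 1 ranked high. Each of its 3 RUNX2 peaks overlapped 1 of its 3 MTA1 peaks. At the first annotated start, the RUNX2 peak chr6:43170776-43171434 (score 32.0, percentile 94.8, 659 bp wide) held the MTA1 peak chr6:43171021-43171392 (26.9, percentile 93.7). Inside the gene, RUNX2 scored 21.2 (88.2) at chr6:43174347-43174870 and MTA1 31.5 (95.8) at chr6:43174554-43174858. Toward PTK7, 6.55 kb before the gene, lay the highest-ranked RUNX2 peak of all 9 genes, chr6:43164447-43164723 (44.5, percentile 97.9), on an MTA1 peak at percentile 29.7 only, at chr6:43164507-43164660. Near the start SRF had the highest RUNX2 rank of the 9 genes, above 91.1% of the 8873 genes, and an MTA1 rank above 78.2% of them.

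The 250 bases before that start, chr6:43171019-43171268 on the plus strand, are shown because SRF is known to act on its own promoter and both peaks cover nearly all of them. Capitals mark CArG boxes.
SRF promoter: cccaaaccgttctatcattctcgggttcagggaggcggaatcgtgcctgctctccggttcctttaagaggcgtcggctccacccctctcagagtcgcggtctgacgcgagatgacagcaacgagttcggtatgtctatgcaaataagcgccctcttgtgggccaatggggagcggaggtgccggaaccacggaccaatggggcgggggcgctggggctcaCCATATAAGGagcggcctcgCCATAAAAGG
The boxes lie at bases 221 to 230 and 241 to 250, in both peaks. SRF was also the only one of the 7 genes in the promoter table with an EGR site (GCGTGGGCG or GCGGGGGCG), which begins at base 202, within both peaks.

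In the order of the strongest RUNX2 peak near a start, SRF (percentile 94.8) and IER3 (93.0) came first, then IER2 (86.9), IER5 (80.2), EGR1 (76.8), EGR2 (73.4), EGR3 (69.7) and NR4A1 (54.6). For MTA1 the order was EGR1 (98.6), IER2 (95.1), SRF (93.7), IER3 (89.8), IER5 (77.8), EGR2 (42.4) and NR4A1 (10.5). In both orders IER3 is placed by its end at IER3-AS1, probably not its own start. At its other end the percentiles were 83.5 for RUNX2 and 51.7 for MTA1. NR4A1 is placed by the 2 annotated starts used here, and any other start of it was not examined. With 1 library for each antibody, whether neighbours in these orders differ could not be assessed. The strongest peak of the whole window gave other orders. For RUNX2, SRF (97.9), IER2 (97.5), IER3 (97.1), EGR2 (96.8) and EGR3 (92.2) came before NR4A1 (89.2), IER5 (87.9), EGR1 (76.8) and EGR4 (20.8). For MTA1, EGR1 (98.6), NR4A1 (97.4), IER3 (95.9), SRF (95.8), IER2 (95.1) and IER5 (92.9) lay above EGR3 (79.3) and EGR2 (54.6).

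**Figure D3:**
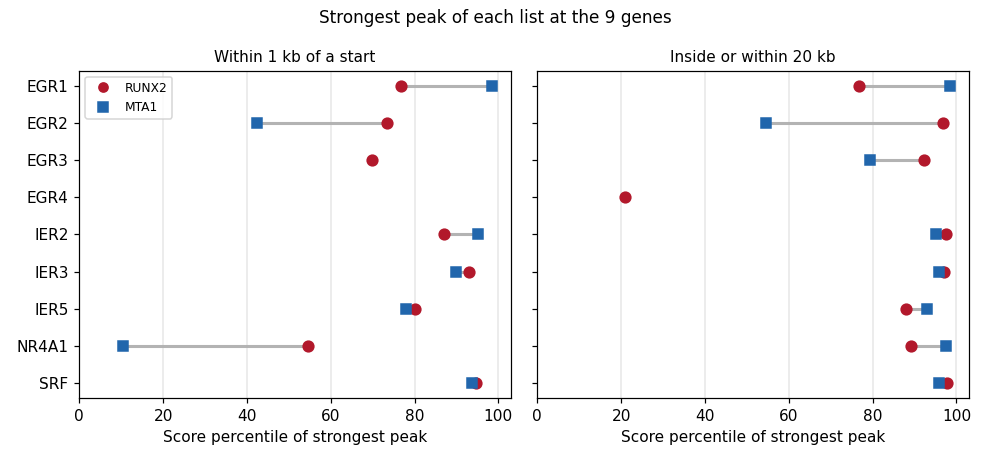
Score percentile of the strongest RUNX2 peak (circles) and MTA1 peak (squares) at each gene, within 1 kb of a start on the left and in the whole window on the right. For EGR3 and IER3 either gene end counts as a start, and for NR4A1 only the 2 annotated starts used here. Lines join both lists at a gene, and a missing marker means no peak. EGR1 has the higher MTA1 rank in both panels, and NR4A1 moves from percentiles 54.6 and 10.5 on the left to 89.2 and 97.4 on the right.

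Across the 44 overlapping pairs at the 9 genes neither list was ranked higher throughout. MTA1 had the higher percentile in 21 pairs and RUNX2 in 23, and the median difference, MTA1 minus RUNX2, was -1.12 points, with a range from -69.0 to 51.4. Over all 28440 overlapping pairs MTA1 was higher in 42.7% and the median difference was -3.66. The centres of the paired peaks lay 30.8 bp apart in the median and at most 333 bp. Near a start MTA1 was higher in 4 of 10 pairs, against 60.5% of the 8850 such pairs over all genes, and away from starts in 17 of 34, against 34.6% of 19590. The Spearman rho of the percentiles was 0.368 over the 44 pairs, which share both libraries, and 0.450 over all pairs. These are descriptions over peaks, not tests.

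**Figure D4:**
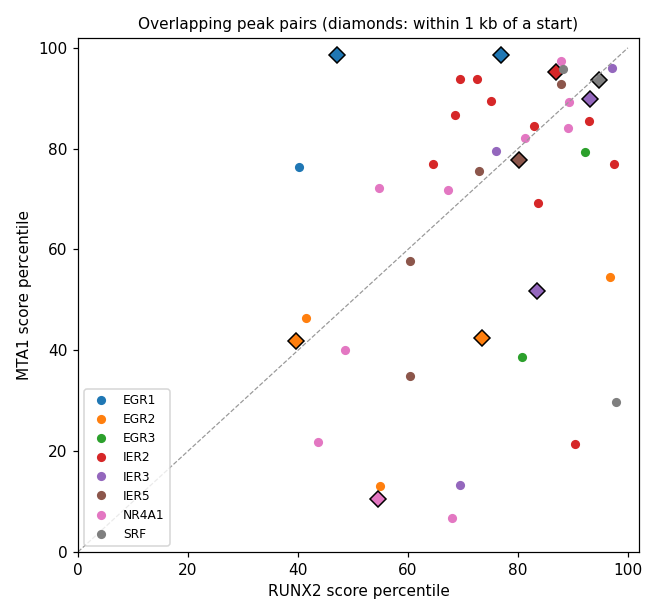
RUNX2 (horizontal axis) against MTA1 (vertical axis) score percentile of the 44 overlapping pairs, coloured by gene, with diamonds for pairs within 1 kb of a start and a dashed line of equal percentile. Points lie on both sides of the line, 21 above and 23 below it. Both EGR1 diamonds lie above it at an MTA1 percentile of 98.6, and the NR4A1 diamond lies below it at 10.5.

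Promoter windows of 300 bases, from 250 before to 50 after a start, were given by RefSeq for 7 of the 9 genes and numbered 11. A RUNX2 peak touched 4 of them, at EGR2, IER2, IER5 and SRF, and an MTA1 peak touched 5, the same 4 and that of EGR1. The share of all promoter windows touched by a peak was not computed, so these counts have no background here. The same holds for motif matches inside peaks. The CArG box, searched on both strands as were all motifs, was found in 3 of the 11 windows, at EGR1, EGR2 and SRF. Of the 35116 windows of all genes 1.29% held one. In total these 3 promoters hold 5 boxes, all 5 in an MTA1 peak and those of SRF also in a RUNX2 peak. The ETS core CCGGAA was found in 4 of the 11 windows, at IER2, IER5, NR4A1 and SRF, and in 17.2% of all windows. TGACG was found in 5 of the 11 windows, at EGR1, EGR2, EGR4, IER2 and SRF, and in 24.6% of all windows. The full palindrome TGACGTCA, which contains it, was found at none of the 7 genes and in 1.85% of all windows. The EGR site was found in 1 of the 11 windows, at SRF, and in 5.77% of all windows. The RUNX core TGTGGT was found at none of the 7 genes and in 13.1% of all windows. A match is a matter of letters only and was not linked to binding here.

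The same measurements were made at 41 other genes of the pathway, chosen by name: cofactors of SRF, corepressors of EGR proteins, relatives of the members and other immediate early genes. Near a start RUNX2 peaks were found at 31 of them, MTA1 peaks at 32 and overlapping pairs at 29, and 7 had none. Of all 20037 protein-coding genes 49.8%, 51.2% and 42.3% had these, and 8671 had no peak of either list there. In the wider window RUNX2 peaks, MTA1 peaks and pairs were found at 39, 38 and 37 of the 41 genes. Of all protein-coding genes 84.4%, 79.7% and 71.0% had them. The median percentile of the strongest peak near a start was 80.0 for RUNX2 and 72.4 for MTA1, against 71.5 and 75.4 over all protein-coding genes with such a peak. The medians of the 9 genes were 78.5 and 89.8, over 8 and 7 genes. The latter is the value of IER3 at its end by IER3-AS1.

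Of the 5 SRF cofactors 3 had a pair near a start. MRTFA, the actin-regulated coactivator, had percentiles of 94.8 for RUNX2 and 98.8 for MTA1, while its relative MRTFB had no peak near a start. Of the corepressors NAB1 and NAB2, which bind EGR proteins, both had an MTA1 peak there and NAB2 also a RUNX2 peak. Among the relatives, NR4A2, NR4A3 and IER5L, all 3 had a RUNX2 peak and 2 a pair. The other immediate early genes had a pair in 23 of 31. By the mean of both percentiles JUN, a subunit of AP-1, ranked first (scores 32.7 and 69.6, the latter at percentile 99.9), followed by MRTFA and by DUSP1 (94.5 and 95.3), a phosphatase that ends MAP kinase signals. The lowest genes with both were ZFP36L1 (0.616 and 48.3), DUSP5 (40.7 and 49.0) and PTGS2 (29.3 and 62.6). No peak of either list lay near a start at ARC, ATF3, BTG2, DUSP2, MRTFB, SIK1 and ZFP36, and none lay in the whole window at ARC and SIK1. The pathway was thus not covered evenly, and EGR4 was not the only immediate early gene without a peak near its start.

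**Figure D5:**
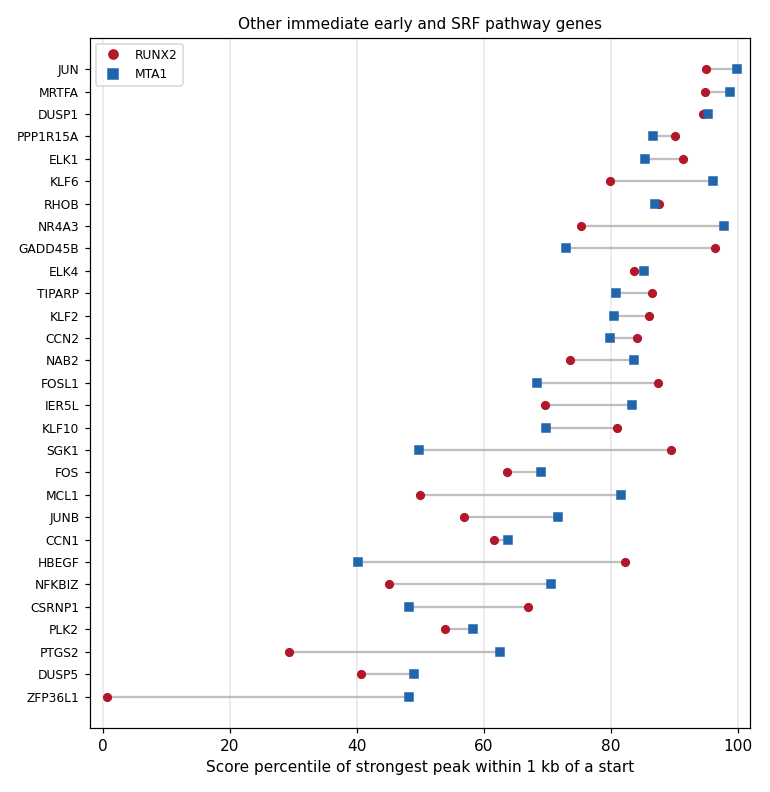
Score percentile of the strongest RUNX2 (circles) and MTA1 (squares) peak within 1 kb of a start, for the 29 genes of the pathway list that have both, ordered by their mean. JUN is at the top with an MTA1 percentile of 99.9, and ZFP36L1 at the bottom with 0.616 and 48.3. The horizontal distance between the markers of a gene is the difference in rank between the lists.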

How the data were processed

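Per the labels, 1 CUT&Tag library was made with an antibody against each protein in MDA-MB-231 cells. The labels also describe end repair and adaptor ligation, which leaves the library preparation uncertain. The authors called peaks in each library and deposited 1 list per library with positions and a score for each peak. The score scale, the threshold and any control were not stated in the sources used here. The submitters' processing notes name CASAVA 1.4, Bowtie 0.12.8, MACS, MACS2 and hg19, without roles. However, 271 RUNX2 and 226 MTA1 peaks lie beyond the hg19 ends of their chromosomes, so positions were read as GRCh38 and given 1-based.

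Genes and promoter windows came from RefSeq (GRCh38.p14). All 9 members were found, 7 of them in the promoter table. A start was that of the promoter table or, where a gene has no entry (4194 genes), either gene end. Overlap was at least 1 bp. The 17 RUNX2 and 15 MTA1 mitochondrial peaks were left out. Read depth is unknown, and exact 95% intervals cover counting error only. Overlap and rank steps were tested on simulated data. The members, lists and tests were chosen with earlier results of these data known. Named genes are the members, the nearest other genes to their peaks, the 3 highest, 3 lowest and peakless genes of the pathway list, its cofactors, corepressors and relatives, and the 5 genes closest to EGR1 in both percentiles. Groups came from the antibody labels. Alternatives were other score, width, window, overlap and nearest-gene rules and merging of peaks within 500 bp. Steps were run in Python 3.11.15 (scipy 1.17.1, pandas 2.3.3, numpy 2.4.6, matplotlib 3.10.9).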

Additional observations from a re-analysis of the deposited data

How the results depend on the processing

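No paired analysis was possible because there is 1 library for each antibody and no test was run. Of 55 alternatives over 7 results 43 left the value within 1.5-fold or within its interval, and 12 moved it. Among peaks that reach the median score of their list 30 MTA1 peaks remained. Among the top 10000 peaks by score 16 RUNX2 and 21 MTA1 peaks remained, and a pair near a start remained at 3 of the 9 genes, IER2, IER3 and SRF, and at 8 of the 41 other genes. That of IER3 is the pair at its end by FLOT1 and IER3-AS1. Windows of 5 kb held 26 RUNX2 and 22 MTA1 peaks, and 36 and 30 peaks had the gene itself as their nearest. These numbers fall by construction, since fewer peaks were kept. The MTA1 overlap share in the top 10000 was 57.1% (12 of 21). The share in the background windows fell as well, from 69.5% to 51.0%, and the cause was not tested. In the background windows of genes no longer than NR4A1, computed after the shares of the 9 genes were seen, the share was lower than at the 9 genes in 8 of 8 alternatives for each list. The interval of the 9 genes lay above the background in 5 of the 8 for RUNX2 and in 4 of the 8 for MTA1. It met the background under the median score, top 10000 and 50% overlap rules in both lists and in the 5 kb windows for MTA1. When each peak had to share 50% of its width, a stricter rule, the overlap was 56.1% of RUNX2 and 69.6% of MTA1 peaks and left EGR1 without a pair, as its RUNX2 peaks are much narrower than its MTA1 peak. Under the median score rule EGR2 and NR4A1 lost their pair near a start, which left 5 genes. Without the narrowest peaks NR4A1 lost it. Within 3 kb of a start EGR3 had a pair, and within 50 kb of the gene EGR4 had one. The unknown read depth limits the weak peaks most, among them those of EGR4.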

Other observations

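Other genes in the windows carried some of the peaks described above. The starts of genes outside the 9 were sought in 8 windows, without that of EGR3, and lay within 1 kb of 6 of 50 RUNX2 peaks and 7 of 44 MTA1 peaks. Of the 40 RUNX2 and 34 MTA1 peaks there that lay away from the starts of the 9 genes, 3 of each list were among them. These lay by ADO in the EGR2 window and by ATG101 in the NR4A1 window.

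The GC content of the promoter windows touched by a peak ran from 59.3% at SRF to 69.7% at IER2, against a median of 58.7% over all windows. The windows without a peak were those of EGR4 (71.0%), the second start of NR4A1 (69.7%), the second start of SRF (70.3%) and the first and second of EGR2 (54.7% and 77.3%). The window of the first NR4A1 start, also without a peak, had 53.3% and 5 CpG sites, against a median of 14. Whether GC content goes with the presence of a peak was not tested.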
